A study of Mus musculus with 9 samples.

Results

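The set of cell cycle and proliferation genes holds 52 genes, taken by symbol from expression tables of mouse colon cancer cells that list 16399 genes. All 52 were found, and all 52 passed the filter on low values (at least 1 TPM in at least 3 of the 9 libraries), among 11287 genes that did. For this description they were put into 3 classes by their textbook roles: 19 genes of S phase, which license, start and feed DNA replication, 22 mitotic genes, and 11 genes of G1 and of cell cycle transcription. MC38 is a carcinoma line from the colon of a C57BL/6 mouse, and MC38-P is the parental culture carrying GFP and luciferase. MC38-LM3a and MC38-LM3b are liver-metastatic derivatives of it, which the study calls independently derived. They were recovered after 3 rounds of injection into the spleen of C57BL/6 mice, resection of the liver lesions and expansion in culture. The study names MC38-LM1 and MC38-LM2 for the earlier rounds, and whether the derivatives share those rounds is not stated. All 9 libraries carry the same label and come from cultured cells without treatment. Each line was sequenced in 3 libraries labelled as biological replicates, and no source used here says that a derivative is 1 clone or which cultures the replicates were, so the p-values measure the spread between these libraries. Values are TPM, a level corrected for transcript length and scaled to a fixed total per library, which can be compared between genes.

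A dividing cell commits to a new round in G1, when cyclin D with Cdk4 or Cdk6 and then cyclin E with Cdk2 phosphorylate the retinoblastoma protein and release E2F transcription factors. E2F turns on the S-phase genes, among them the Mcm helicase, its loaders and the enzymes that make deoxynucleotides. A later wave, driven by the MuvB complex with B-Myb (Mybl2) and Foxm1, turns on the mitotic genes, whose promoters often carry a cell cycle homology region (CHR) and CCAAT boxes bound by NF-Y.

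The promoters of some S-phase and mitotic members are shown first, because both waves are read from short elements near the start of the gene. They are the sequences from 250 bases before to 30 bases after the transcription start, from RefSeq on GRCm38.p6, printed 5′ to 3′ on the strand of the gene, with motif matches in capitals. Mcm3 (chr1:20820283-20820562, minus strand) and Cdt1 (chr8:122567765-122568044, plus strand) had the largest mean falls of the S-phase genes. Ccnb2 (chr9:70421525-70421804, minus strand) and Bub1 (chr2:127831830-127832109, minus strand) had the largest mean differences of the mitotic genes that passed a test and had a window. With all libraries, Bub1 passed in MC38-LM3b only, and that call did not hold on other scales given below.
Mcm3: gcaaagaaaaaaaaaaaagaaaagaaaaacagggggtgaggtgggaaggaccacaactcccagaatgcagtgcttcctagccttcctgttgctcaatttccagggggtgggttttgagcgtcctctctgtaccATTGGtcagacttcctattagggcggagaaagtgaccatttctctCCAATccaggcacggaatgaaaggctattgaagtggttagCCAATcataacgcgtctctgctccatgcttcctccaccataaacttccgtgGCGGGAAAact
Cdt1: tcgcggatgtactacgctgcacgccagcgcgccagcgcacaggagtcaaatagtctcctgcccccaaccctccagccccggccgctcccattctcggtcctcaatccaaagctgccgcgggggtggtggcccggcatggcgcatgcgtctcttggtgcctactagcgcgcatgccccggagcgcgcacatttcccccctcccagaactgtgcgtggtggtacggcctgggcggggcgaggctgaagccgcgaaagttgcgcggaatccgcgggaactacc
Ccnb2: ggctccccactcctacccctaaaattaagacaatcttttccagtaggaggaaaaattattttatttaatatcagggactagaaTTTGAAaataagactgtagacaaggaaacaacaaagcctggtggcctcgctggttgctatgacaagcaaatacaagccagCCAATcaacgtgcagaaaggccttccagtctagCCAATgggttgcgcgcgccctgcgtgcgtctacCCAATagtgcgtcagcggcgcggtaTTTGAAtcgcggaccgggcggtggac
Bub1: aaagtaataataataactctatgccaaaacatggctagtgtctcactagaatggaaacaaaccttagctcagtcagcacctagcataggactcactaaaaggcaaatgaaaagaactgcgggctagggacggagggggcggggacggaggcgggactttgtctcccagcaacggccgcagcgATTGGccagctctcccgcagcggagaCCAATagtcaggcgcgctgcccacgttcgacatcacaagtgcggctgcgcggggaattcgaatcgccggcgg

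The motifs searched on both strands were CCAAT, the CHR (TTTGAA) and 4 letter forms of the E2F site, namely TTTCCCGC or TTTCGCGC or TTTGCCGC or TTTGGCGC. In the Mcm3 window, CCAAT letters lay at -117 to -113, -72 to -68 and -32 to -28, and an E2F form, read on the opposite strand, at 20 to 27, counted from the start without a base 0. The Ccnb2 window held 3 CCAAT boxes, at -87, -54 and -21 by their first base, and TTTGAA at -167 and again at 5. Bub1 had CCAAT letters at -68 and -42, and the Cdt1 window held none of these letters. No 2 matches in these windows overlapped. The RefSeq table had a window for 41 of the 52 members, taken at the first start listed, and the others were Ccnd1, Rb1, Foxm1, Ccne2, Gmnn, Mcm4, Ccna2, Cdc25c, Aurkb, Kif20a and Tpx2. An E2F form was present in 6 of 16 S-phase windows (37.5%), namely those of Cdc25a, Cdc6, Mcm3, Mcm5, Mcm6 and Mcm7, and in 1 of 17 mitotic windows (5.88%), that of Cdk1, against 584 of 27025 windows in the table (2.16%). TTTGAA was present in 8 of 17 mitotic windows (47.1%), those of Mki67, Top2a, Ccnb2, Cdk1, Cdc20, Cenpa, Cenpf and Kif11, each of which also held CCAAT, and in 2 of 16 S-phase windows (12.5%), those of Cdc45 and Mcm2, against 17.4% of the table. CCAAT was present in 68.8% of the S-phase windows, 88.2% of the mitotic windows and 36.6% of the table. A match is a run of letters and was not tested as a site.

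The libraries were not alike within groups. A library had 10875 to 11218 genes at or above 1 TPM, and the files hold no read counts, so depth and counting error are unknown. MC38-P replicate 3 and MC38-LM3a replicate 3 stood apart from the other libraries of their lines along transcript length: across 11096 genes, the Spearman correlation of their deviation with length was -0.65 and 0.67. Deviations from the line mean in MC38-P replicate 3 correlated at 0.48 and 0.49 with those in MC38-LM3a replicates 1 and 2. Those in MC38-LM3a replicate 3 correlated at 0.55 and 0.32 with MC38-P replicates 1 and 2. In a fit without both libraries that stood apart, MC38-LM3a and this pattern along length cannot be told apart. Over all tested genes, MC38-LM3a had a median log2 difference of 0.00 and MC38-LM3b one of 0.21. The tests are against 0, so calls and missed calls in MC38-LM3b include this general shift. Values with each library centred on its median are given beside many of them. The summed colon epithelial markers moved with the comparison and ranged from 2003 to 2318 TPM in MC38-P, 1592 to 1811 TPM for MC38-LM3a and 1584 to 1629 TPM for MC38-LM3b. Krt8 had means of 1127, 806 and 764 TPM in this order, Epcam of 5.76, 2.05 and 2.21 TPM and Cdx2 of 2.27, 0.63 and 0.41 TPM, while Krt19, at 114, 149 and 108 TPM, was highest in MC38-LM3a. Krt20, at means of 0.69, 1.48 and 1.15 TPM, was higher in both derivatives. Most of the sum is Krt8 and Krt18, which lie on chromosome 15. The median difference of 458 tested genes there was -0.54 for MC38-LM3a and -0.32 for MC38-LM3b, and its part in the sum was not tested. Krt8 and Krt18 were abundant, but Cdh1, Cdx1, Vil1, Muc2 and Lgr5 were under 1 TPM in every library, although the labels call the cells epithelial. Of the markers that the tables list, those of hepatocytes (4 of 5), T cells (3 of 3), endothelium (6 of 7), macrophages (4 of 5) and stellate cells or fibroblasts (4 of 7) were under 1 TPM everywhere. The summed macrophage markers, nearly all Cd68, ranged from 28.4 to 30.2 TPM in MC38-P, 34.7 to 41.5 TPM for MC38-LM3a and 40.4 to 45.95 TPM for MC38-LM3b, and the stellate and fibroblast sum, mostly Col3a1, from 135 to 173, 54.1 to 72.6 and 65.4 to 72.2 TPM. Their part in the results was not tested.

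The first question was whether the derivatives differed from MC38-P in the S-phase and in the mitotic genes. S-phase genes were lower in both derivatives. In MC38-LM3a, 14 of 19 S-phase genes fell and 0 rose, while 13.8% of all tested genes fell and 14.1% rose (limma, adjusted p under 0.05). In MC38-LM3b, 11 of 19 fell and 0 rose, against 11.2% and 35.6% of all tested genes. The same 11 genes, Ccne1, Cdc6, Cdt1, Mcm2 to Mcm7, Mcm10 and Pcna, fell in both comparisons, against 9.07% of all tested genes, and both comparisons use the same MC38-P libraries. Of the 22 mitotic genes, 1 rose and 1 fell in MC38-LM3a, and 4 rose and 2 fell in MC38-LM3b. In cultures sequenced in bulk, fewer cells in a phase and less transcript per cell cannot be told apart.

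**Figure D1:**
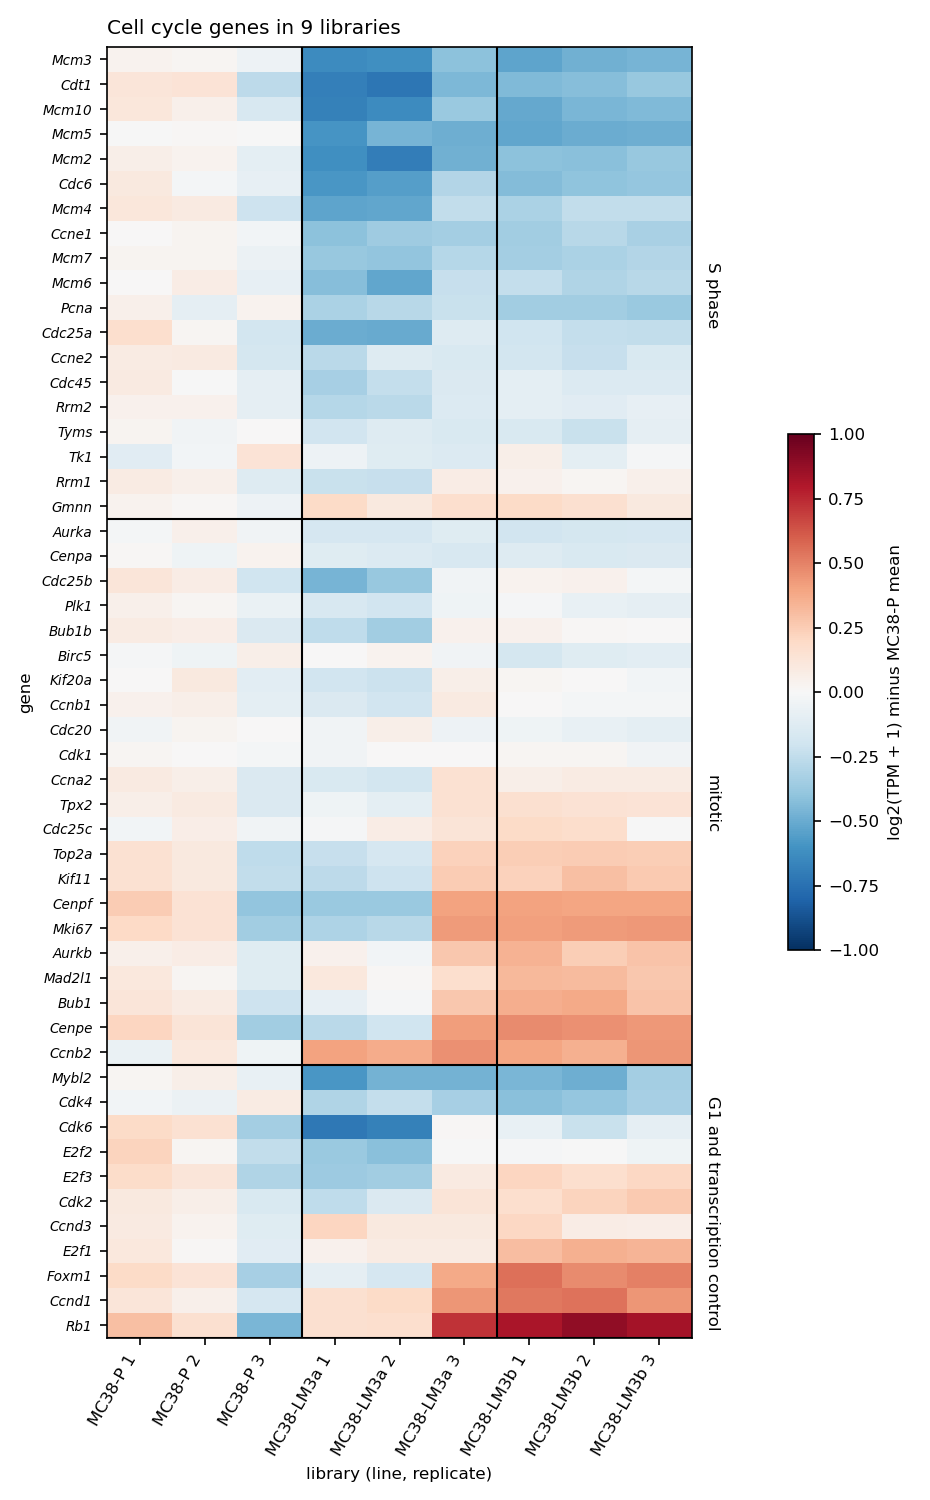
Heat map of the 52 genes (rows, ordered by class and by mean difference in the derivatives) in 9 libraries (columns), coloured by log2(TPM + 1) minus the MC38-P mean. Blue fills the upper S-phase rows of all 6 derivative libraries, the mitotic rows are pale or mixed, and MC38-P replicate 3 and MC38-LM3a replicate 3 differ in shade from the other libraries of their line.

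The median log2 difference of the S-phase class was -0.37 in MC38-LM3a, where 18 of 19 genes lay below 0, and -0.27 in MC38-LM3b, where 17 did. That of the mitotic class was -0.06 and 0.10. The medians of all tested genes were 0.00 and 0.21, so in MC38-LM3b the mitotic class, too, lay below the general shift. Summed over the class, S-phase transcripts took 3162 ± 107 TPM in MC38-P, 2560 ± 142 TPM for MC38-LM3a and 2662 ± 11.6 TPM for MC38-LM3b (SD, n = 3). Mitotic transcripts took 3651 ± 240 TPM, 3572 ± 320 TPM and 3898 ± 18.6 TPM. The ratio of the mitotic to the S-phase sum was 1.16, 1.19 and 1.11 in the MC38-P libraries, 1.36, 1.37 and 1.45 in those of MC38-LM3a and 1.47, 1.47 and 1.45 in those of MC38-LM3b. Every derivative library had a higher ratio than every MC38-P library, with or without the libraries that stood apart, and no test is given for a sum over members chosen with earlier results known.

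**Figure D2:**
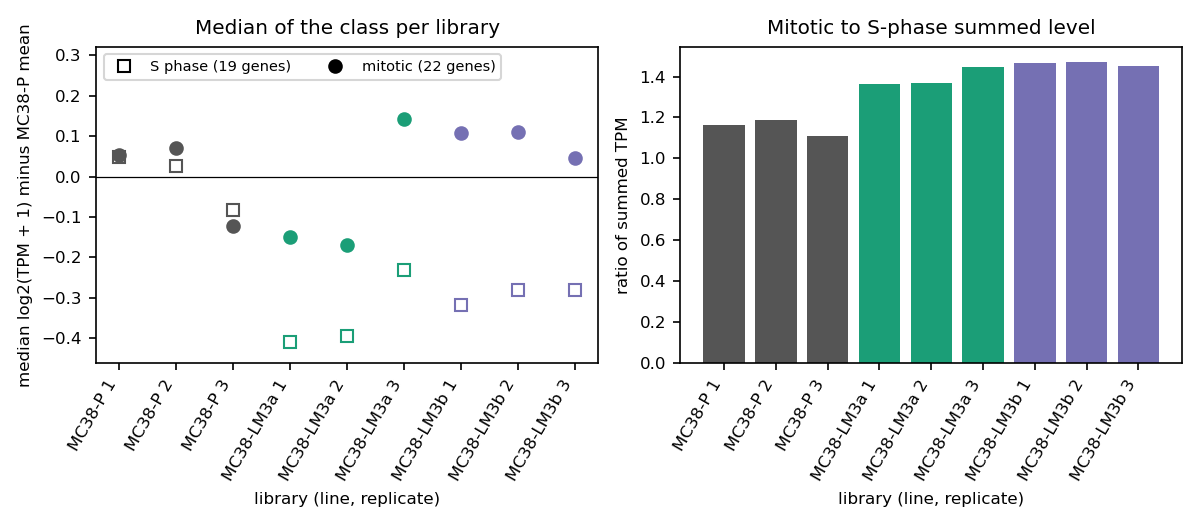
Left, median over the class of log2(TPM + 1) minus the MC38-P mean for S-phase (open squares) and mitotic genes (filled circles) in each library. Right, the summed TPM of the mitotic genes divided by that of the S-phase genes, with 1 bar per library, from 1.11 to 1.19 in MC38-P and from 1.36 to 1.47 in the derivatives.

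Among the S-phase genes, the 6 subunits of the Mcm2-7 helicase, which is loaded on origins in G1 and unwinds DNA in S phase, fell together. Mcm2 stood at 164, 161 and 146 TPM in the MC38-P libraries, 102, 96.6 and 112 TPM in those of MC38-LM3a and 118, 117 and 120.2 TPM in those of MC38-LM3b. Its 6 derivative libraries all lay below the lowest MC38-P library, and its log2 difference was -0.60 (SE 0.07, adjusted p = 0.000179) in MC38-LM3a and -0.40 (SE 0.07, adjusted p = 0.00133) in MC38-LM3b, which left 66.0% and 75.4% of the MC38-P mean. Mcm3 stood at 252, 249 and 237 TPM in the MC38-P libraries, 159, 160.2 and 185 TPM in those of MC38-LM3a and 171, 176 and 178 TPM in those of MC38-LM3b. Again the groups did not overlap, and the difference was -0.55 (SE 0.07, adjusted p = 0.000224) in MC38-LM3a and -0.49 (SE 0.07, adjusted p = 0.000325) in MC38-LM3b. Of the 6 subunits, Mcm5 had the tightest MC38-P values, with 146, 147 and 145 TPM in the MC38-P libraries, 96.9, 106 and 104 TPM in those of MC38-LM3a and 102, 104 and 104 TPM in those of MC38-LM3b. It fell to 70.0% and 70.5% of the MC38-P mean, with differences of -0.51 (SE 0.06, adjusted p = 0.000116) in MC38-LM3a and -0.50 (SE 0.06, adjusted p = 9.82e-05) in MC38-LM3b. The differences of Mcm4, Mcm6 and Mcm7 were -0.43, -0.39 and -0.35 in MC38-LM3a and -0.27, -0.27 and -0.32 in MC38-LM3b. The weakest of them was Mcm4 in MC38-LM3b (adjusted p = 0.0481). With offsets for GC content and length, the differences in MC38-LM3b were -0.50 (adjusted p = 2.56e-06), -0.50 (adjusted p = 2.49e-05) and -0.49 (adjusted p = 8.57e-06). The exons of Mcm7 overlap those of Ap4m1 and Cops6 on the other strand. No source used here says whether the libraries kept the strand, so reads of such pairs cannot be told apart. The same holds for Ccna2, Ccnd1, Ccnd3, Ccne2, Cdk2, Cdk4, Cdc20, Cdc25b, Cdc45, Tk1, Kif20a and Rb1, and Foxm1 overlaps Tex52 on its own strand.

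The factors that load the helicase fell as well. Cdt1, which with Cdc6 brings the Mcm complex to origins, stood at 82.8, 83.8 and 63.1 TPM in the MC38-P libraries, 47.0, 45.7 and 55.4 TPM in those of MC38-LM3a and 55.5, 56.4 and 58.2 TPM in those of MC38-LM3b. MC38-P replicate 3 was the lowest of its group and still lay above every derivative library. The differences of Cdt1 were -0.62 (SE 0.11, adjusted p = 0.00249) in MC38-LM3a and -0.41 (SE 0.11, adjusted p = 0.0134) in MC38-LM3b, the largest fall of any member in MC38-LM3a. Without MC38-P replicate 2 the difference in MC38-LM3b was -0.34 (adjusted p = 0.0568). Cdc6 changed by -0.47 (SE 0.09, adjusted p = 0.00314) in MC38-LM3a and -0.41 (SE 0.09, adjusted p = 0.00488) in MC38-LM3b. Mcm10, which helps to activate the loaded helicase, stood at 57.6, 55.2 and 47.6 TPM in the MC38-P libraries, 33.1, 34.2 and 41.0 TPM in those of MC38-LM3a and 37.1, 38.6 and 39.0 TPM in those of MC38-LM3b, with no overlap and differences of -0.56 (SE 0.10, adjusted p = 0.00218) in MC38-LM3a and -0.47 (SE 0.10, adjusted p = 0.00378) in MC38-LM3b. Cdc45, a partner of the active helicase, fell in MC38-LM3a with a difference of -0.24 (SE 0.07, adjusted p = 0.0348) and did not pass in MC38-LM3b (-0.12, adjusted p = 0.191), where it passed with the offsets (-0.28, adjusted p = 0.000176) and with centring (-0.35, adjusted p = 0.000962). Gmnn encodes geminin, the inhibitor of Cdt1, and was the S-phase member that lay higher in all 6 derivative libraries. It stood at 163, 160.1 and 153 TPM in the MC38-P libraries, 181, 169.7 and 178 TPM in those of MC38-LM3a and 181, 178 and 169 TPM in those of MC38-LM3b, and its differences, 0.15 (adjusted p = 0.0752) and 0.15 (adjusted p = 0.0538), did not pass. With MC38-P replicate 3 and MC38-LM3a replicate 3 left out, Gmnn passed in both comparisons, at 0.12 (adjusted p = 0.0452) and 0.12 (adjusted p = 0.0252). It did not pass with the offsets for GC content and length (0.08, adjusted p = 0.164, and 0.10, adjusted p = 0.0741), and with each library centred on its median its difference was 0.15 (adjusted p = 0.154) for MC38-LM3a and negative, -0.07 (adjusted p = 0.446), for MC38-LM3b.

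Pcna, the sliding clamp of the replicative polymerases, was the most abundant member in MC38-P. It stood at 702, 639 and 697 TPM in the MC38-P libraries, 546, 559 and 582 TPM in those of MC38-LM3a and 534, 533 and 525 TPM in those of MC38-LM3b. The groups did not overlap, and the difference was -0.27 (SE 0.05, adjusted p = 0.00394) in MC38-LM3a and -0.36 (SE 0.05, adjusted p = 0.000569) in MC38-LM3b, or 82.8% and 78.1% of the MC38-P mean. Cyclin E1 (Ccne1), the partner of Cdk2 at entry into S phase, changed by -0.37 (SE 0.06, adjusted p = 0.00185) in MC38-LM3a and -0.32 (SE 0.06, adjusted p = 0.00301) in MC38-LM3b. Its paralog Ccne2 did not pass, with -0.18 (adjusted p = 0.138) and -0.19 (adjusted p = 0.0862), but did with the offsets (-0.28, adjusted p = 0.0023, and -0.53, adjusted p = 2.97e-05). Cdc25a, the phosphatase that activates Cdk2, passed in MC38-LM3a (-0.38, adjusted p = 0.0357) and missed the threshold in MC38-LM3b (-0.23, adjusted p = 0.13) with all libraries on the deposited scale. In MC38-LM3b it passed with the offsets (-0.43, adjusted p = 2.63e-05), with centring (-0.45, adjusted p = 0.000114), without both libraries that stood apart (-0.32, adjusted p = 0.000386) and without MC38-LM3a replicate 3 (-0.23, adjusted p = 0.0375). The difference between the derivatives did not pass with all libraries (0.15, adjusted p = 0.332) and passed without MC38-LM3a replicate 3 (0.27, adjusted p = 0.0316).

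Of the 4 genes that supply deoxynucleotides, 1 fell in MC38-LM3a, where 13.8% of all tested genes fell, and 0 in MC38-LM3b, where 11.2% did, too few genes to set against those shares. Rrm2, the regulated subunit of ribonucleotide reductase, stood at 365, 365 and 333 TPM in the MC38-P libraries, 290.3, 293 and 321 TPM in those of MC38-LM3a and 330.2, 328 and 335 TPM in those of MC38-LM3b. It fell in MC38-LM3a (-0.23, adjusted p = 0.0159) and overlapped with MC38-P in MC38-LM3b (-0.10, adjusted p = 0.206). The large subunit Rrm1 had differences of -0.13 (adjusted p = 0.327) and 0.04 (adjusted p = 0.738), thymidylate synthase (Tyms) of -0.16 (adjusted p = 0.142) and -0.16 (adjusted p = 0.0998), and thymidine kinase (Tk1) of -0.10 (adjusted p = 0.351) and -0.02 (adjusted p = 0.849). None of these 6 tests passed with all libraries on the deposited scale, and the 95% interval of Tk1 reached from -0.26 to 0.06 in MC38-LM3a. With centring, Rrm2 (-0.32, adjusted p = 0.00216), Rrm1 (-0.19, adjusted p = 0.00989) and Tyms (-0.38, adjusted p = 0.00676) fell in MC38-LM3b and Tk1 did not pass (-0.24, adjusted p = 0.141). With the offsets, Rrm2 (-0.29, adjusted p = 4.29e-05), Rrm1 (-0.21, adjusted p = 0.000447) and Tyms (-0.37, adjusted p = 0.00233) also passed as lower in MC38-LM3b. Without both libraries that stood apart, Rrm2 (-0.14, adjusted p = 0.00218) and Tyms (-0.15, adjusted p = 0.0276) passed as lower in MC38-LM3b. Rrm1 (-0.03, adjusted p = 0.437) and Tk1 (0.05, adjusted p = 0.405) did not pass in that fit. In MC38-LM3a, Rrm1 passed as lower with the offsets (-0.14, adjusted p = 0.00765), without MC38-LM3a replicate 3 (-0.23, adjusted p = 0.0199) and without both libraries that stood apart (-0.29, adjusted p = 5.02e-05). In 13 of 19 S-phase genes, no library of either derivative reached the range of MC38-P from below, against 12.3% of all tested genes.

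**Figure D3:**
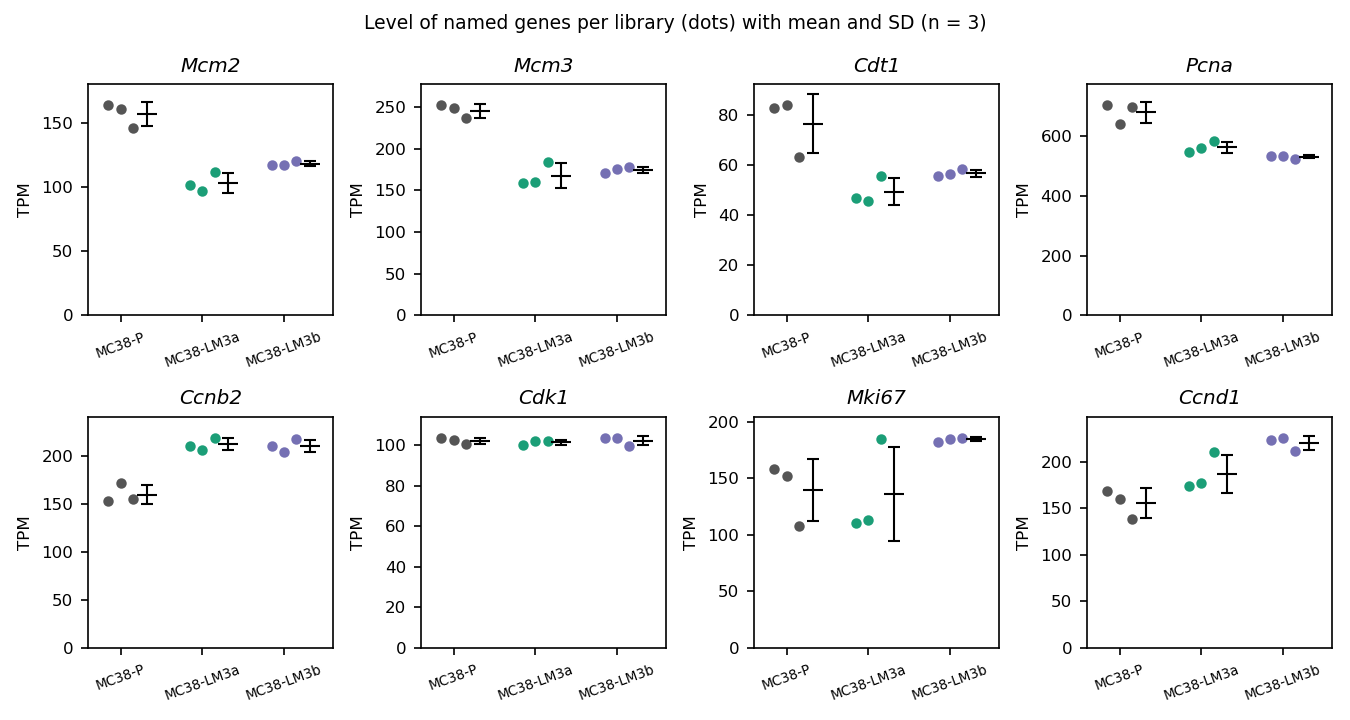
TPM of Mcm2, Mcm3, Cdt1, Pcna, Ccnb2, Cdk1, Mki67 and Ccnd1 in each library (dots, 3 per line) with the mean and SD beside them, on axes that start at 0. The derivatives lie below MC38-P for the S-phase genes of the upper row and above it for Ccnb2, while Cdk1 stays between 99.7 and 104 TPM in all 9 libraries.

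The mitotic genes gave few calls. Cdk1, the kinase that drives entry into mitosis, stood at 103, 102 and 100.5 TPM in the MC38-P libraries, 99.8, 102 and 102 TPM in those of MC38-LM3a and 103, 104 and 99.7 TPM in those of MC38-LM3b. Its differences were -0.01 (SE 0.06, adjusted p = 0.923) in MC38-LM3a and 0.00 (SE 0.06, adjusted p = 0.975) in MC38-LM3b, with 95% intervals of -0.13 to 0.11 and -0.12 to 0.12. In MC38-LM3b this depended on the scale: Cdk1 passed as lower with the offsets (-0.22, adjusted p = 0.0458) and with centring (-0.22, adjusted p = 0.0461). Cyclin B1 (Ccnb1), its partner, stood at 276, 278 and 250.4 TPM in the MC38-P libraries, 242, 234 and 285 TPM in those of MC38-LM3a and 269, 264 and 265 TPM in those of MC38-LM3b, and its ranges overlapped, with differences of -0.08 (SE 0.08, adjusted p = 0.472) in MC38-LM3a and -0.01 (SE 0.08, adjusted p = 0.924) in MC38-LM3b. It, too, passed as lower in MC38-LM3b with the offsets (-0.24, adjusted p = 0.000469) and with centring (-0.23, adjusted p = 0.00507), and in MC38-LM3a with the offsets (-0.15, adjusted p = 0.00775), without MC38-LM3a replicate 3 (-0.17, adjusted p = 0.0427) and without both libraries that stood apart (-0.22, adjusted p = 0.000372). Cyclin B2 (Ccnb2), the other B-type partner, was higher in both derivatives. It stood at 153, 172 and 155 TPM in the MC38-P libraries, 211, 207 and 219.6 TPM in those of MC38-LM3a and 211, 205 and 218 TPM in those of MC38-LM3b. Every derivative library exceeded every MC38-P library, and the difference was 0.41 (SE 0.06, adjusted p = 0.000797) in MC38-LM3a and 0.40 (SE 0.06, adjusted p = 0.000654) in MC38-LM3b, that is 133% and 132% of the MC38-P mean. Ccnb2 was the 1 member that rose in both comparisons, against 13.3% of all tested genes. Its rise held with offsets for GC content and length (0.34, adjusted p = 0.000206, and 0.29, adjusted p = 0.00051), but with each library centred on its median the difference in MC38-LM3b was 0.18 (adjusted p = 0.109).

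Mki67, the proliferation antigen Ki-67, and Top2a, the topoisomerase that untangles chromosomes, did not pass in either derivative with all 9 libraries. Mki67 stood at 158, 152 and 108 TPM in the MC38-P libraries, 110.5, 113 and 184 TPM in those of MC38-LM3a and 182, 185 and 186 TPM in those of MC38-LM3b. Within MC38-LM3a, replicate 3 stood apart from the other libraries, and MC38-P replicate 3 was the lowest of all 9. The differences were -0.05 (SE 0.19, adjusted p = 0.867) in MC38-LM3a and 0.42 (SE 0.19, adjusted p = 0.0857) in MC38-LM3b. Top2a stood at 577, 557 and 435 TPM in the MC38-P libraries, 442, 461 and 608 TPM in those of MC38-LM3a and 615, 620.2 and 614 TPM in those of MC38-LM3b and split in the same way, with differences of -0.06 (SE 0.13, adjusted p = 0.78) in MC38-LM3a and 0.25 (SE 0.13, adjusted p = 0.127) in MC38-LM3b. Without both libraries that stood apart, both genes passed as lower in MC38-LM3a, Mki67 at -0.47 (adjusted p = 5.70e-06) and Top2a at -0.33 (adjusted p = 3.80e-05), and as higher in MC38-LM3b, at 0.25 (adjusted p = 0.000141) and 0.12 (adjusted p = 0.00887). For any gene, that fit cannot tell a fall in MC38-LM3a from the pattern along length. Without MC38-LM3a replicate 3 alone, Mki67 was at -0.29 (adjusted p = 0.086) and Top2a at -0.20 (adjusted p = 0.117) in MC38-LM3a, and both passed in MC38-LM3b, with adjusted p of 0.00682 and 0.0255. Cenpe and Cenpf, long proteins of the outer kinetochore, and the spindle motor Kif11 were also high in MC38-LM3a replicate 3 and in all MC38-LM3b libraries, and in MC38-LM3b they differed by 0.45 (adjusted p = 0.0605), 0.39 (adjusted p = 0.142) and 0.26 (adjusted p = 0.138). Without MC38-LM3a replicate 3 all 3 passed in MC38-LM3b, with adjusted p of 0.00584, 0.021 and 0.0265, and without both libraries that stood apart they passed at 0.28 (adjusted p = 0.000296), 0.20 (adjusted p = 0.00295) and 0.14 (adjusted p = 0.011). In MC38-LM3a none of the 3 passed with all libraries (-0.02, -0.12 and -0.07). Without both libraries that stood apart they passed as lower there, at -0.41 (adjusted p = 4.80e-05), -0.57 (adjusted p = 7.32e-06) and -0.36 (adjusted p = 6.70e-05). Among the 22 mitotic genes, transcript length and the difference in MC38-LM3b had a Spearman correlation of 0.57, and 0.24 across all tested genes, in libraries that differed along length. After offsets for GC content and length, Mki67, Cenpe and Cenpf were at 0.14 (adjusted p = 0.0514), 0.17 (adjusted p = 0.0284) and 0.11 (adjusted p = 0.188) in MC38-LM3b, Top2a was at -0.03 (adjusted p = 0.53), Kif11 at -0.02 (adjusted p = 0.687), and Mki67 in MC38-LM3a was at 0.08 (adjusted p = 0.249).

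Of the spindle checkpoint genes, Bub1 and Mad2l1 passed as higher in MC38-LM3b, where 35.6% of all tested genes rose, and Bub1b did not. Bub1, a checkpoint kinase, stood at 66.9, 65.0 and 53.1 TPM in the MC38-P libraries, 57.9, 60.9 and 74.1 TPM in those of MC38-LM3a and 79.3, 80.2 and 75.2 TPM in those of MC38-LM3b, and Mad2l1, which holds back the anaphase-promoting complex, at 139, 131 and 119 TPM in the MC38-P libraries, 139, 130.3 and 146 TPM in those of MC38-LM3a and 162, 161 and 156 TPM in those of MC38-LM3b. In MC38-LM3b every library exceeded MC38-P for both, and the differences were 0.34 (SE 0.11, adjusted p = 0.0253) and 0.30 (SE 0.07, adjusted p = 0.00656). In MC38-LM3a neither passed with all libraries (0.06, adjusted p = 0.745, and 0.09, adjusted p = 0.374). Without both libraries that stood apart, Bub1 passed as lower in MC38-LM3a (-0.15, adjusted p = 0.0206) and Mad2l1 did not pass (-0.01, adjusted p = 0.919). After the offsets the differences in MC38-LM3b were 0.06 (adjusted p = 0.228) and 0.01 (adjusted p = 0.9). With centring they were 0.12 (adjusted p = 0.0847) and 0.08 (adjusted p = 0.265), so neither call held on these scales. Both passed in MC38-LM3b without both libraries that stood apart, at 0.24 (adjusted p = 0.000888) and 0.24 (adjusted p = 0.000745). Without MC38-LM3a replicate 3 both passed as well, with adjusted p of 0.00441 and 0.00198. The call of Bub1 was lost without MC38-P replicate 3 (0.24, adjusted p = 0.0837) or any 1 MC38-LM3b library, the last with differences of 0.33 to 0.37. It was also lost with a replicate block (0.34, adjusted p = 0.0672). The related kinase Bub1b differed by -0.19 (adjusted p = 0.201) and 0.02 (adjusted p = 0.886) with all libraries, and passed as lower in both comparisons with the offsets (-0.17, adjusted p = 0.00399, and -0.18, adjusted p = 0.00235) and with centring (-0.19, adjusted p = 0.013, and -0.20, adjusted p = 0.00679), and in MC38-LM3a without its replicate 3 (-0.30, adjusted p = 0.00822). Of the Aurora kinases, Aurkb, the kinase of the chromosomal passenger complex, rose in MC38-LM3b by 0.29 (SE 0.09, adjusted p = 0.0177), and with the offsets by 0.17 (adjusted p = 0.0209). With each library centred on its median, none of the 4 rises of mitotic genes in MC38-LM3b passed, and the difference of Aurkb was 0.07 (adjusted p = 0.263). Aurka, the centrosomal kinase, fell in both comparisons and stood at 252, 265 and 249 TPM in the MC38-P libraries, 227, 227 and 234 TPM in those of MC38-LM3a and 223, 226 and 228 TPM in those of MC38-LM3b. Its differences were -0.15 (SE 0.05, adjusted p = 0.0472) in MC38-LM3a and -0.18 (SE 0.05, adjusted p = 0.0171) in MC38-LM3b, and its range did not overlap that of MC38-P. In MC38-LM3b the difference was -0.30 (adjusted p = 7.17e-05) with the offsets and -0.40 (adjusted p = 0.0026) with centring. In MC38-LM3a it passed with the offsets (-0.19, adjusted p = 0.00167), but the call was lost with centring (-0.15, adjusted p = 0.158), in a fit of only these groups (adjusted p = 0.145) and with a variance that had no trend (adjusted p = 0.121). Cenpa, the centromeric histone, stood at 211, 204 and 215 TPM in the MC38-P libraries, 192, 191 and 187 TPM in those of MC38-LM3a and 192, 188 and 190.2 TPM in those of MC38-LM3b, fell in MC38-LM3b with a difference of -0.14 (SE 0.05, adjusted p = 0.0414) and missed the threshold in MC38-LM3a (-0.14, adjusted p = 0.063). With the offsets Cenpa passed in both, at -0.23 (adjusted p = 0.000868) and -0.28 (adjusted p = 0.000224), and with centring it was at -0.37 (adjusted p = 0.0119) in MC38-LM3b. On the deposited scale these calls lay near the threshold: the call of Aurka in MC38-LM3a was lost without any 1 library other than MC38-P replicate 3 and MC38-LM3a replicate 3, and that of Cenpa without any 1 library other than MC38-LM3a replicate 3, and the adjusted p reached 0.175 and 0.124. In MC38-LM3b the call of Aurka was lost without MC38-P replicate 2 (-0.15, adjusted p = 0.0702) and without MC38-LM3b replicate 1 or replicate 2. It was also lost with a variance that had no trend (adjusted p = 0.0528) and with a replicate block (adjusted p = 0.0524). Cenpa lost its call in MC38-LM3b under both of these settings, too (adjusted p = 0.1 and 0.0981). With all 9 libraries on the deposited scale, the other mitotic members, Ccna2, Cdc20, Cdc25b, Cdc25c, Plk1, Birc5, Kif20a and Tpx2, did not pass in either comparison, with differences from -0.29 (Cdc25b in MC38-LM3a) to 0.14 (Tpx2 in MC38-LM3b). Without MC38-LM3a replicate 3, Cdc25b (-0.42, adjusted p = 0.00393), Plk1 (-0.18, adjusted p = 0.0368) and Kif20a (-0.20, adjusted p = 0.0328) passed as lower in MC38-LM3a, and Birc5 (-0.14, adjusted p = 0.0349) in MC38-LM3b. Cdc25b also passed as lower in MC38-LM3a with the offsets (-0.28, adjusted p = 0.00248) and with centring (-0.29, adjusted p = 0.00298), and Ccna2, Cdc20, Cdc25b, Plk1, Birc5 and Kif20a did so in MC38-LM3b with the offsets and with centring.

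**Figure D4:**
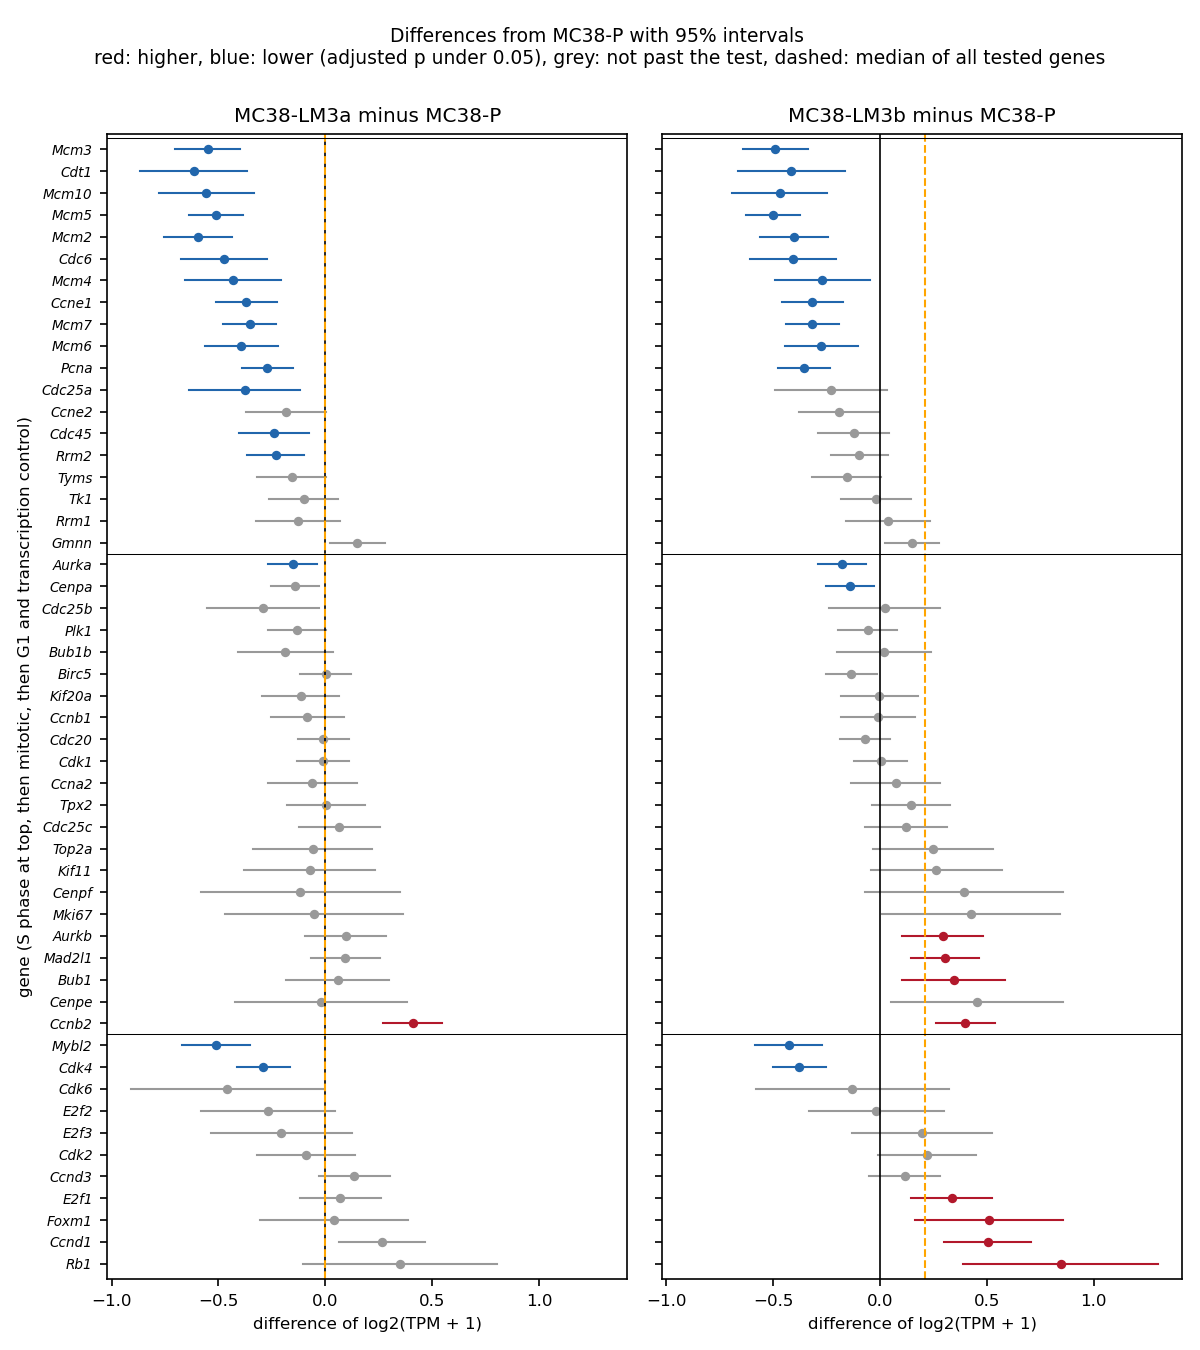
Difference of log2(TPM + 1) from MC38-P with its 95% interval for each gene, MC38-LM3a left and MC38-LM3b right, with genes that passed the test in blue (lower) or red (higher) and the median of all tested genes dashed. The upper S-phase intervals lie left of 0 in both panels, and most mitotic intervals cross 0 in MC38-LM3a.

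In the class of G1 and transcription control, 2 of 11 genes fell and 0 rose in MC38-LM3a, where 13.8% of all tested genes fell and 14.1% rose. In MC38-LM3b, 2 fell and 4 rose, where 11.2% of all tested genes fell and 35.6% rose, so the share of rises was near that of all genes. The median differences were -0.09 and 0.20, beside 0.00 and 0.21 for all tested genes. Mybl2 (B-Myb), the partner of MuvB, stood at 83.3, 85.7 and 78.4 TPM in the MC38-P libraries, 54.6, 59.0 and 59.1 TPM in those of MC38-LM3a and 59.8, 58.6 and 64.8 TPM in those of MC38-LM3b. All derivative libraries lay below MC38-P, with differences of -0.51 (SE 0.07, adjusted p = 0.000461) in MC38-LM3a and -0.43 (SE 0.07, adjusted p = 0.000948) in MC38-LM3b. Cdk4, the kinase of the D-type cyclins, stood at 556, 545 and 601 TPM in the MC38-P libraries, 459.6, 479.6 and 451 TPM in those of MC38-LM3a and 423, 434 and 449.9 TPM in those of MC38-LM3b and likewise fell without overlap, with differences of -0.29 (SE 0.06, adjusted p = 0.00335) in MC38-LM3a and -0.38 (SE 0.06, adjusted p = 0.000492) in MC38-LM3b, although its exons overlap those of Tspan31 on the other strand. With each library centred on its median the difference in MC38-LM3a was -0.29 (adjusted p = 0.0783). The sister kinase Cdk6 was low, between 4.08 and 8.49 TPM, and did not pass with all libraries on the deposited scale (-0.46, adjusted p = 0.122, and -0.13, adjusted p = 0.614). It passed as lower in both comparisons with the offsets (-0.32, adjusted p = 0.0037, and -0.42, adjusted p = 0.000529) and with centring (-0.46, adjusted p = 0.0184, and -0.35, adjusted p = 0.0467), and in MC38-LM3a without its replicate 3 (-0.69, adjusted p = 0.00479) and without both libraries that stood apart (-0.86, adjusted p = 2.22e-05).

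Cyclin D1 (Ccnd1) went the other way. It stood at 168, 160.3 and 138 TPM in the MC38-P libraries, 174, 177 and 211 TPM in those of MC38-LM3a and 224, 226 and 211 TPM in those of MC38-LM3b. The derivative libraries all exceeded MC38-P, and the difference was 0.26 (SE 0.09, adjusted p = 0.0533) in MC38-LM3a and 0.50 (SE 0.09, adjusted p = 0.00154) in MC38-LM3b, so the test passed in MC38-LM3b and missed the threshold in MC38-LM3a. With the offsets it passed in both, at 0.28 (adjusted p = 0.000105) and 0.30 (adjusted p = 5.56e-05), while in MC38-LM3a it was at 0.09 (adjusted p = 0.0873) without both libraries that stood apart and at 0.18 (adjusted p = 0.097) without MC38-LM3a replicate 3. Foxm1, the transcription factor of the mitotic wave, stood at 84.3, 81.0 and 58.2 TPM in the MC38-P libraries, 69.0, 65.5 and 95.7 TPM in those of MC38-LM3a and 108, 103 and 105 TPM in those of MC38-LM3b. It rose in MC38-LM3b by 0.51 (SE 0.16, adjusted p = 0.0222), while in MC38-LM3a its replicate 3 was high and the others were within the range of MC38-P (0.04, adjusted p = 0.881). Without both libraries that stood apart, Foxm1 passed as lower in MC38-LM3a (-0.29, adjusted p = 0.000339). The call in MC38-LM3b was lost without MC38-P replicate 3 (0.34, adjusted p = 0.0694) or any 1 MC38-LM3b library, the last with differences of 0.49 to 0.53. It was also lost with a replicate block (0.51, adjusted p = 0.0591). The call held with the offsets (0.28, adjusted p = 0.00312) and with centring (0.29, adjusted p = 0.0232). It held, too, without both libraries that stood apart (0.34, adjusted p = 6.89e-05) and without MC38-LM3a replicate 3 (0.51, adjusted p = 0.00229). E2f1 rose in MC38-LM3b from 19.9 ± 1.58 to 25.4 ± 0.472 TPM (SD, n = 3), a difference of 0.34 (adjusted p = 0.00946), and differed by 0.07 (adjusted p = 0.597) in MC38-LM3a. With centring the difference in MC38-LM3b was 0.11 (adjusted p = 0.233), and with the offsets 0.18 (adjusted p = 0.0237). Rb1, the retinoblastoma gene, had the largest rise of any member and low levels, at 5.14, 4.59 and 2.63 TPM in the MC38-P libraries, 4.58, 4.62 and 7.22 TPM in those of MC38-LM3a and 7.80, 8.23 and 7.91 TPM in those of MC38-LM3b. Its difference was 0.85 (SE 0.21, adjusted p = 0.00747) in MC38-LM3b and 0.35 (adjusted p = 0.244) in MC38-LM3a, and its exons overlap those of Lpar6 and Rcbtb2. With the offsets the difference was 0.55 (adjusted p = 0.00144) in MC38-LM3b and passed in MC38-LM3a (0.33, adjusted p = 0.0256). Without both libraries that stood apart, Rb1 was at -0.07 (adjusted p = 0.53) in MC38-LM3a. Ccnd3, Cdk2, E2f2 and E2f3 did not pass with all libraries on the deposited scale, with differences from -0.27 (E2f2 in MC38-LM3a) to 0.22 (Cdk2 in MC38-LM3b). E2f2 passed as lower in both comparisons with the offsets (-0.19, adjusted p = 0.00967, and -0.26, adjusted p = 0.0013) and with centring (-0.27, adjusted p = 0.0129, and -0.24, adjusted p = 0.0178), and in MC38-LM3a E2f3 passed as lower (-0.16, adjusted p = 0.0242) and Ccnd3 as higher (0.19, adjusted p = 0.0146) with the offsets. Without MC38-LM3a replicate 3, E2f2 (-0.40, adjusted p = 0.0288) and E2f3 (-0.35, adjusted p = 0.0433) passed as lower in MC38-LM3a, and Cdk2 (0.22, adjusted p = 0.0259) as higher in MC38-LM3b.

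The 2 libraries that stood apart moved these counts. Without them, 17 of 19 S-phase genes, 15 of 22 mitotic genes and 7 of 11 of the third class fell in MC38-LM3a, where 45.2% of all tested genes fell and 18.4% rose. In this fit, MC38-LM3a and the pattern along length cannot be told apart. In MC38-LM3b, 16 S-phase genes fell and 1 rose, and 4 mitotic genes fell and 9 rose, where 19% of all tested genes fell and 46.3% rose. The median difference of the mitotic class was then -0.20 for MC38-LM3a and 0.04 for MC38-LM3b, and that of the S-phase class -0.41 and -0.33. With all libraries and offsets for GC content and length, 16 S-phase genes fell for MC38-LM3a and 17 for MC38-LM3b, 0 rose, and 6 and 11 mitotic genes fell while 1 and 3 rose. All tested genes then fell in 25.3% and 28.9% of cases and rose in 27% and 29.6%. With the offsets, the median S-phase difference in MC38-LM3b was -0.50 and the mitotic one -0.11, beside 0.01 for all tested genes. With each library centred on its median, 3 members rose and 32 fell in MC38-LM3b, 17 of them S-phase and 11 mitotic genes, where 22.9% of all tested genes rose and 26.4% fell. With quantile normalization 7 rose and 24 fell, 16 of them S-phase and 4 mitotic genes, where 25.9% of all tested genes rose and 24.5% fell. On the deposited scale, 8 members rose and 15 fell in MC38-LM3b.

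**Figure D5:**
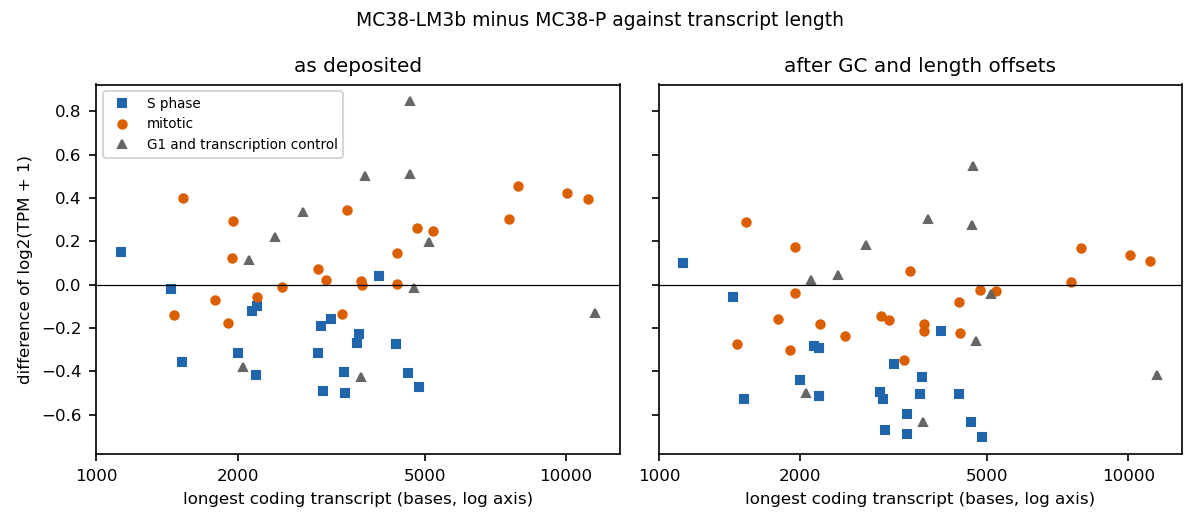
Difference of log2(TPM + 1) between MC38-LM3b and MC38-P for each of the 52 genes against the length of its longest coding transcript (log axis), with values as deposited on the left and after offsets for GC content and length on the right. The longest mitotic genes lie well above 0 on the left and nearer to it on the right, and the lowest point in both panels is an S-phase gene.

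Between the derivatives, 0 of 52 members passed the test in limma, and 6 of all tested genes did (0.0532%). At an unadjusted p under 0.05, 18 of 52 members passed, against 38.1% of all tested genes. This result rested on 1 library: without MC38-LM3a replicate 3, 29 members were higher in MC38-LM3b (7 of the S phase, 14 mitotic and 8 of the third class) and 1, Birc5, an inhibitor of apoptosis that acts in mitosis, was lower, where 52.2% of all tested genes were higher and 4.24% lower. With all libraries, the difference of Mcm2 between the derivatives was 0.19 (SE 0.07, adjusted p = 0.119) with a 95% interval of 0.04 to 0.35, that of Mki67 0.48 (SE 0.19, adjusted p = 0.119) with an interval of 0.06 to 0.89, and that of Cdk1 0.01 (SE 0.06, adjusted p = 0.873) with an interval of -0.11 to 0.13. Pcna lay lower in every MC38-LM3b library than in every MC38-LM3a library, with a difference of -0.08 (SE 0.05, adjusted p = 0.237). These values depended on the scale: Mcm2 was at -0.04 (adjusted p = 0.605) with the offsets and -0.03 (adjusted p = 0.724) with centring, Mki67 at 0.06 (adjusted p = 0.551) with the offsets, and Pcna at -0.31 (adjusted p = 0.166) with centring. Mki67 was at 0.72 (adjusted p = 0.00388) without MC38-LM3a replicate 3.

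Other genes of the pathway, listed by role, were counted in the same fit. Of 45 other replication genes, with median differences of -0.21 and -0.06, 13 fell and 1 rose in MC38-LM3a, where 13.8% and 14.1% of all tested genes did, and 13 fell and 2 rose in MC38-LM3b, where 11.2% and 35.6% did. Without MC38-P replicate 2, or without any 1 MC38-LM3b library, 8 passed in MC38-LM3b, and in MC38-LM3a 8 passed without MC38-P replicate 2 and 27 without MC38-LM3a replicate 3. In the fits for MC38-LM3a, 18.6% of all tested genes passed without MC38-P replicate 2 and 37.4% without MC38-LM3a replicate 3, against 28% with all libraries. In those for MC38-LM3b, 37.5% passed without MC38-P replicate 2 and 33% to 34% without 1 MC38-LM3b library, against 46.7%. The largest fall was that of Dscc1, a subunit of a clamp loader that acts in sister chromatid cohesion, which stood at 29.5, 24.9 and 28.4 TPM in the MC38-P libraries, 13.8, 14.1 and 14.7 TPM in those of MC38-LM3a and 14.2, 14.1 and 12.7 TPM in those of MC38-LM3b, with differences of -0.91 (SE 0.10, adjusted p = 8.49e-05) in MC38-LM3a and -0.96 (SE 0.10, adjusted p = 4.61e-05) in MC38-LM3b. The gene that rose in both was Rpa3, the small subunit of the single-strand binding protein RPA, at 0.24 (adjusted p = 0.0371) and 0.29 (adjusted p = 0.00952), but with the offsets its differences were 0.00 and 0.03 (adjusted p = 0.994 and 0.716). Orc1 and Orc2, subunits of the origin recognition complex, fell in both comparisons, Orc2 with differences of -0.58 (adjusted p = 0.00166) and -0.44 (adjusted p = 0.00554). Dut, which keeps uracil out of DNA, fell with differences of -0.44 (adjusted p = 0.000417) and -0.53 (adjusted p = 9.91e-05), and the checkpoint kinase Chek1 with -0.45 (adjusted p = 0.00759) and -0.30 (adjusted p = 0.0341). Orc1, Orc2, Dut and Chek1 were chosen after their values were seen, as were Cdkn1a, Cdkn1b, Cdkn2c, Cdkn3, Rbx1 and Ccnt1 below.

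Of 50 other mitotic genes, with median differences of -0.03 and 0.16, 7 fell and 1 rose in MC38-LM3a, where 13.8% of all tested genes fell and 14.1% rose. In MC38-LM3b 3 fell and 7 rose, where 11.2% and 35.6% of all tested genes did. Without MC38-LM3a replicate 3, 14 passed for MC38-LM3a and 25 for MC38-LM3b, and for the latter 16 passed without MC38-P replicate 1 and 4 to 6 without MC38-P replicate 2 or replicate 3 or any 1 MC38-LM3b library. Of all tested genes, 37.4% and 59% passed without MC38-LM3a replicate 3, shares above those of this list, and for MC38-LM3b 47.2% passed without MC38-P replicate 1 and 33% to 37.5% without 1 of the others. The rise in both was that of Spc25, a subunit of the Ndc80 kinetochore complex, which stood at 87.7, 80.6 and 71.2 TPM in the MC38-P libraries, 99.1, 101 and 98.1 TPM in those of MC38-LM3a and 106, 107 and 104 TPM in those of MC38-LM3b, with differences of 0.32 (SE 0.08, adjusted p = 0.0106) in MC38-LM3a and 0.40 (SE 0.08, adjusted p = 0.00191) in MC38-LM3b. With each library centred on its median, its difference in MC38-LM3b was 0.18 (adjusted p = 0.0747). Espl1, the protease separase, had the largest mean fall, at 53.8, 52.4 and 38.3 TPM in the MC38-P libraries, 21.2, 23.1 and 32.9 TPM in those of MC38-LM3a and 34.2, 34.2 and 34.7 TPM in those of MC38-LM3b, with differences of -0.89 (SE 0.16, adjusted p = 0.00241) in MC38-LM3a and -0.46 (SE 0.16, adjusted p = 0.0395) in MC38-LM3b. The call in MC38-LM3b was lost without MC38-P replicate 1 or replicate 2 or any 1 MC38-LM3b library, with an adjusted p of up to 0.122. Espl1 lies on chromosome 15, where the median difference of 458 tested genes was -0.54 for MC38-LM3a and -0.32 for MC38-LM3b. All 4 of the other mitotic genes on that chromosome fell in MC38-LM3a (Racgap1, Gtse1, Troap and Espl1), against 3 of 46 elsewhere, and 2 of 4 fell in MC38-LM3b, against 1 of 46. Dscc1 lies on it too, and 0 of the 52 members do. The part of chromosome 15 in these falls was not tested.

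Of 5 inhibitors of cyclin-dependent kinases that were tested, with median differences of 0.30 and 0.35, 3 rose in MC38-LM3a, where 14.1% of all tested genes rose, 4 rose in MC38-LM3b, where 35.6% did, and 0 fell. The median difference of all tested genes was 0.21 in the second comparison, and with centring 2 of the 5 rose in it. Cdkn3, a phosphatase of Cdk proteins, was the other rise in MC38-LM3a, at 0.37 (adjusted p = 0.0152), and Cdkn2c (p18) the other in MC38-LM3b, at 0.35 (adjusted p = 0.0147). Cdkn2d (p19), an inhibitor of Cdk4 and Cdk6, had the largest rise. It stood at 41.4, 42.2 and 42.3 TPM in the MC38-P libraries, 68.8, 62.9 and 64.7 TPM in those of MC38-LM3a and 71.6, 73.8 and 65.9 TPM in those of MC38-LM3b, without overlap and with differences of 0.63 (SE 0.07, adjusted p = 0.000115) in MC38-LM3a and 0.73 (SE 0.07, adjusted p = 3.34e-05) in MC38-LM3b. Cdkn1a (p21), a target of p53, rose by 0.30 (adjusted p = 0.00471) and 0.27 (adjusted p = 0.00602). Cdkn1b (p27) rose in MC38-LM3b (0.48, adjusted p = 0.0113) and not in MC38-LM3a (0.17, adjusted p = 0.354). Without MC38-LM3b replicate 1, 2 of these 5 rose in MC38-LM3b. Cdkn1c was under the filter, and Cdkn2a and Cdkn2b were not analysed here.

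Of 29 other cyclins, pocket proteins, E2F and MuvB factors, with median differences of -0.03 and 0.19, 3 fell and 4 rose in MC38-LM3a, shares near the 13.8% and 14.1% of all tested genes, and 1 fell and 9 rose in MC38-LM3b, where 11.2% and 35.6% of all tested genes did. In MC38-LM3a, 2 passed without MC38-P replicate 2 and 4 without MC38-LM3a replicate 1. Cyclin D2 (Ccnd2) had the largest difference of any gene in these lists. It stood at 14.5, 14.8 and 11.2 TPM in the MC38-P libraries, 2.48, 2.43 and 3.02 TPM in those of MC38-LM3a and 3.54, 3.60 and 2.85 TPM in those of MC38-LM3b. The derivatives kept 19.5% and 24.6% of the MC38-P mean, with differences of -1.99 (SE 0.14, adjusted p = 4.53e-06) in MC38-LM3a and -1.74 (SE 0.14, adjusted p = 8.28e-06) in MC38-LM3b, opposite in sign to those of Ccnd1. Ccng1, an atypical cyclin induced by p53, rose most, at 242, 231 and 198 TPM in the MC38-P libraries, 342, 348 and 376 TPM in those of MC38-LM3a and 379, 373 and 383 TPM in those of MC38-LM3b, with differences of 0.67 (SE 0.08, adjusted p = 0.000121) in MC38-LM3a and 0.76 (SE 0.08, adjusted p = 4.05e-05) in MC38-LM3b. Of 18 genes of the APC/C and SCF ubiquitin ligases, with median differences of -0.10 and 0.07, 2 fell and 2 rose in MC38-LM3a, and 3 fell and 3 rose in MC38-LM3b, beside the same shares of all tested genes. Without MC38-LM3a replicate 3, 7 passed in MC38-LM3a. Skp2, the subunit that directs p27 to degradation, stood at 63.9, 68.8 and 57.5 TPM in the MC38-P libraries, 35.6, 35.1 and 43.5 TPM in those of MC38-LM3a and 41.1, 39.1 and 39.7 TPM in those of MC38-LM3b and fell with differences of -0.72 (SE 0.10, adjusted p = 0.000395) in MC38-LM3a and -0.65 (SE 0.10, adjusted p = 0.000554) in MC38-LM3b, and Rbx1, the RING subunit, with -0.54 (adjusted p = 0.000193) and -0.55 (adjusted p = 0.00012). Both lie on chromosome 15, as does Ccnt1, which fell in MC38-LM3a (-0.71, adjusted p = 0.0155). Anapc2, a subunit of the APC/C, rose by 0.36 (adjusted p = 0.00584) and 0.49 (adjusted p = 0.000738).

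By level, Pcna was the highest member in MC38-P, at 679.5 ± 34.8 TPM (SD, n = 3), followed by Cdk4 at 567 ± 29.6 TPM, Top2a at 523 ± 76.5 TPM and Rrm2 at 354 ± 18.4 TPM. The libraries of Cdk4 and Top2a overlapped, while those of Pcna lay above both. Rb1 and Cdk6 were the lowest members, at 4.12 ± 1.32 and 7.44 ± 1.62 TPM. In MC38-LM3b, Top2a stood first at 616 ± 3.27 TPM and Pcna next at 530.5 ± 5.11 TPM, and their libraries did not overlap.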

How the data were processed

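Poly(A) RNA of the parental line and both derivatives was sequenced on the DNBSEQ platform, 3 libraries per line. The submitters' processing notes name HISAT and the genome build GRCm39, and the tool and annotation behind the values are not given in the sources used here. The authors deposited 1 table per library with TPM of 16399 genes at 2 decimals, with 1 fixed total for all libraries. TPM keep no depth, so planned tests on counts were not possible and precision was judged from the 3 libraries per line.

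A gene was kept when 3 or more libraries reached 1 TPM (11287 genes). Values were analysed as log2(TPM + 1) with limma 3.58.1 in R 4.3.3, in 1 linear model over the 9 libraries with the variance trended on level, and Benjamini-Hochberg adjustment of p-values over the 11287 genes. Rises and falls in the text are adjusted p under 0.05. A difference is a mean log2(TPM + 1) minus that of MC38-P, which understates changes of low genes, and intervals are 95% intervals. The authors' own comparison of the lines used DESeq2, and none of its values was used.

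The members and all gene lists were chosen with earlier results of these data known. Values are given for Mki67, Top2a, Pcna, Mcm2, Ccnd1, Cdk1 and Ccnb1, for the 3 largest called rises and falls per class and comparison, and, per list of other genes, for the largest mean rise and fall among genes called in both comparisons. Other members are added by role. Alternatives were another pseudocount, other filters, fits of 2 groups, a replicate block, offsets per library for GC content and transcript length (loess, span 0.3), median centring, quantile normalization, no variance trend and each library left out. Leaving out both libraries that stood apart was added after seeing the data. Lengths, GC content and exon overlaps came from GENCODE M21 (GRCm38), matched by NCBI Gene ID, and promoters from RefSeq, matched by symbol. The code was tested on simulated data. Of 100 genes changed by a log2 difference of 0.4, 22 were recovered in MC38-LM3a and 25 in MC38-LM3b. Of 100 changed by 1, 87 and 82 were recovered. Far fewer genes were changed there than were called here, so these shares may not carry over. A gene that did not pass may still differ.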

Additional observations from a re-analysis of the deposited data

How the results depend on the processing

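With the settings tried, the median of the S-phase genes stayed negative in both derivatives, and the count of members that fell in MC38-LM3a and MC38-LM3b stayed above that of rises. Of 1740 values of named genes under alternatives, 1613 kept their call or its absence, 55 gained and 68 lost a call, and 4 gained a call with the other sign. Those 4 were not called in the report. They were Cdk1 in MC38-LM3b, at -0.22 with the offsets and -0.22 with centring, and, without both libraries that stood apart, Bub1 (-0.15) and Foxm1 (-0.29) in MC38-LM3a. Values past the threshold in neither fit were counted as kept also where their sign changed, such as Mki67 in MC38-LM3a (-0.05, and 0.08 with the offsets) and Top2a in MC38-LM3b (0.25 and -0.03). The causes were not tested. Counts of called genes are given beside those of the report in brackets.

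In fits of only the groups compared, 9 other replication genes (14) and 4 other cyclins and factors (7) were called in MC38-LM3a, and 21 other mitotic genes (10) in MC38-LM3b. Of all tested genes, 18.6% (28%) were called in MC38-LM3a and 54.9% (46.7%) in MC38-LM3b in these fits. Without a filter on low values, 6 other mitotic genes were called in MC38-LM3b, where 32% of 16395 genes were called, against 46.7% of the 11287 in the report.

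With the offsets for GC content and length, the calls in MC38-LM3a were 31 members (18), 28 other replication genes, 20 other mitotic genes (8), 15 other cyclins and factors and 10 ubiquitin ligase genes (4), and in MC38-LM3b 39 members (23), 34 other replication genes (15) and 20 other mitotic genes. The median differences in MC38-LM3b were -0.50 for S-phase, -0.11 for mitotic and 0.0207 for G1 genes.

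With centring, 22 other replication genes were called in MC38-LM3a, and 35 members, 33 other replication genes and 2 kinase inhibitors (4) in MC38-LM3b, where the medians were -0.50, -0.13 and -0.0278. Of all tested genes, 40% (28%) were then called in MC38-LM3a and 49.3% (46.7%) in MC38-LM3b. With quantile normalization, 25 other replication genes were called in MC38-LM3a and 27 in MC38-LM3b, where the medians were -0.38, -0.0322 and 0.0019.

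Without MC38-P replicate 3 and MC38-LM3a replicate 3, 41 members, 36 other replication genes, 37 other mitotic genes, 21 other cyclins and factors and 11 ubiquitin ligase genes were called in MC38-LM3a, 38 members, 27, 28 and, of the ligase genes, 13 (6) in MC38-LM3b, and 36 members (0) between the derivatives. Of all tested genes, 63.6%, 65.3% and 71.7% were called in these comparisons. Those with MC38-LM3a cannot tell the line from the pattern along length. The medians were -0.20 (mitotic) and -0.28 (G1) in MC38-LM3a and 0.0539 (G1) in MC38-LM3b.

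With each library left out in turn, 14 to 27 members, 8 to 27 other replication genes, 6 to 14 other mitotic genes, 2 to 9 other cyclins and factors and 3 to 7 ubiquitin ligase genes were called in MC38-LM3a, with the highest counts of the first and second of these lists without MC38-LM3a replicate 3. In MC38-LM3b the calls were 17 to 32 members, 8 to 18 other replication genes, 4 to 25 other mitotic genes and 2 to 5 kinase inhibitors, and the median of the G1 genes was 0.0539 to 0.27. Between the derivatives they were 0 to 30 members, the latter without MC38-LM3a replicate 3. Of all tested genes, 18.6% to 37.4% were called in MC38-LM3a, 33% to 59% in MC38-LM3b and 0% to 56.4% between the derivatives.

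The replicate numbers are shared between the lines, but the 9 same-numbered pairs correlated at -0.66 to 0.07, so they were not taken as pairs. With a replicate block, 3 other cyclins and factors (7) were called in MC38-LM3a, and 8 other replication genes (15) and 4 other mitotic genes (10) in MC38-LM3b. Of all tested genes, 19.5% (28%) were then called in MC38-LM3a and 34.5% (46.7%) in MC38-LM3b. With the block and the offsets, the calls were 29 members, 25 other replication genes, 19 other mitotic genes, 14 other cyclins and factors and 8 ubiquitin ligase genes in MC38-LM3a, and 36 members, 31 and 17 in MC38-LM3b, with medians of -0.50, -0.11 and 0.0207 under this block. Of all tested genes, 49.1% and 55.2% were called with the block and the offsets.

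The files hold no counts, so depth and counting error are unknown, and with 3 libraries per line of which 1 stood apart in MC38-P and in MC38-LM3a, small differences of long genes rest on few libraries.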
